A study of Mus musculus with 4 samples.

Results

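Some regions that LSD1 ChIP-seq called as a single peak at day 2 of C2C12 differentiation held several separate peaks at day 5, and these regions are described here. The rule took every day 2 peak on chromosomes 1 to 19 that was narrower than 2000 bp and overlapped at least 2 day 5 peaks, each by 1 bp or more. It found 1221 regions, called split peaks below, among 44039 day 2 peaks, which is 2.77% of the list. Together they held 2508 of the 17446 day 5 peaks (14.4%). The overlap of the lists chose the regions, so their number, their widths and the layout of their day 5 peaks are a description and no test was made of them. A split is a relation between 2 peak lists and does not record a peak coming apart in cells.

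C2C12 is a mouse myoblast line, a single cell line in which withdrawal of serum starts differentiation into muscle fibres in culture. Cells grown in 10% fetal bovine serum were moved to 2% horse serum, with 25 mM glucose in both media, and were collected after 48 h (day 2, differentiating) or 120 h (day 5, differentiated). The series holds 4 libraries, an LSD1 precipitate made with an anti-LSD1 polyclonal antibody and an input at each day, with no genetic change or drug in any group and 1 library per group. Differences between the days have no replicate check, and p-values are not given. The depth of the libraries is unknown, since read totals were not analysed here, and neither were the inputs. Intervals are 95% intervals (Wilson for shares, order statistics for medians), cover counting error only and treat peaks as independent.

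LSD1 (Kdm1a) is a flavin-dependent enzyme that removes methyl groups from histone H3, best known for lysine 4, where methylation marks promoters and enhancers. It has no strong sequence preference of its own and is brought to chromatin by transcription factors and by corepressor complexes that contain CoREST and histone deacetylases. In muscle cells it is known as a regulator of differentiation and of the choice between metabolic and fibre type programmes. A ChIP-seq peak is an interval where fragments pile up above background, and each peak carries a score given by the authors' peak caller, whose scale is not stated. The score is used here within a list, and a place is a peak's rank by score in its own list. Regions are given by position in mm9, because no annotation or genome of that build was used here.

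Split peaks made up 2.85% of the 42796 day 2 peaks in the width range on chromosomes 1 to 19. In the same range 29.7% of day 2 peaks had at least 1 day 5 peak, and 9.59% of these 12728 were split (9.09 to 10.1). Most split peaks held exactly 2 day 5 peaks (1153, or 94.4%). Another 67 held 3 and 1 held 4. Merging day 5 peaks less than 200 bp apart would leave 388 split peaks, and a width limit of 1500 bp would leave 812. The comparison regions below are the 11507 day 2 peaks of the same range with exactly 1 day 5 peak, called single-partner peaks.

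A split peak shared the highest score of the day 2 list, 3100, which 3 day 2 peaks had. This region on chromosome 2, positions 92022805 to 92024612, had a width of 1808 bp. Its first day 5 peak, 92023057 to 92024168, also held the first place at day 5 with a score of 2608. Its other day 5 peak, 92024272 to 92024563, began after a gap of 103 bp and had a score of 98.87, at place 4747. The day 5 signal called in this region was thus a dominant peak with a much lower one beside it.

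On chromosome 11 the split peak at 116441667 to 116443429 held place 6 at day 2, with a score of 2107. Both of its day 5 peaks were high in their list, at place 435 (116441799 to 116442612, score 260) and place 7 (116442698 to 116443298, score 728), with a gap of 85 bp. The higher of these was the narrower, 601 against 814 bp. On chromosome 5 at 34877483 to 34879010 (day 2 score 1893, place 12) the day 5 peaks had scores of 458 and 53.65 and a gap of 175 bp, and the lower one reached past the end of the day 2 peak. The second split peak on chromosome 11 among the highest, at 43494576 to 43496465 (score 1389), paired a day 5 peak of score 515 with one of 82.78 across a gap of 312 bp. Its own midpoint fell into that gap, which was so in no other of the 10 highest.

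The region of the 10 with the lowest day 5 scores lay on chromosome 7. There, at 52446388 to 52448161, the day 2 peak had a score of 1543 and place 29. Its 3 day 5 peaks had scores of 54.51, 66.84 and 52.53, at places 14453, 10024 and 15670 of the 17446. They were 239, 261 and 209 bp wide, were separated by 257 and 251 bp, and together covered 40.0% of the day 2 peak. On chromosome 9 at 74918331 to 74920080 (score 1345, place 54) the day 5 scores were 140 and 77.37. The region on chromosome 15 at 76291356 to 76293242 (score 1374) held 3 day 5 peaks, of scores 145, 133 and 57.84. A second region on chromosome 2, at 65075899 to 65077536 (score 1492), also held 3, of scores 61.52, 202 and 79.72, with the highest in the middle and gaps of 12 and 33 bp. The remaining regions of the 10 highest lay on chromosome 8 at 86520298 to 86522103 (day 2 score 1337, day 5 scores 92.06 and 361) and on chromosome 1 at 34067675 to 34068836 (1310, with 332 and 58.76).

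**Figure D1:**
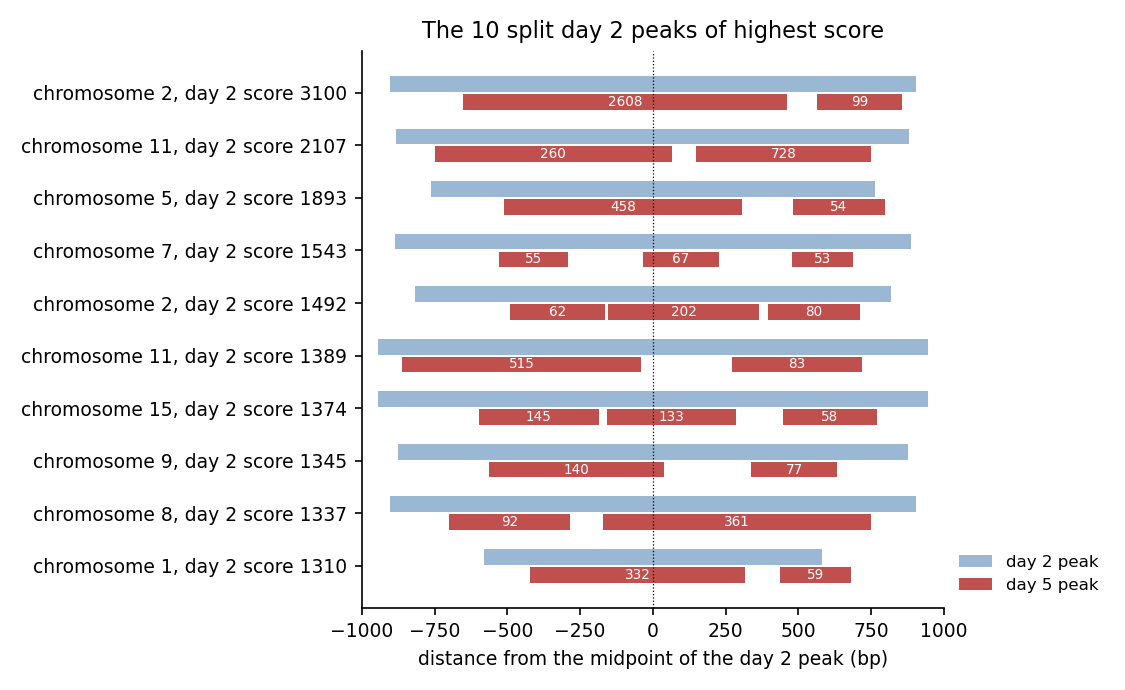
The 10 split peaks of highest day 2 score, each drawn to scale around the midpoint of its day 2 peak (x axis, bp), with the day 2 peak as the upper bar and its day 5 peaks as lower bars labelled with their day 5 score. In 7 regions 2 day 5 peaks were called and in 3 regions 3 were called, and the day 2 midpoint lies in a gap in the chromosome 11 region of score 1389 only.

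The gaps between day 5 peaks ranged from a single base to over 1 kb. Over the 1290 pairs of neighbouring day 5 peaks inside split peaks, the median gap was 103 bp (94 to 116), with quartiles of 33 and 237 bp and a range of 1 to 1158 bp. Of these gaps, 423 were narrower than 50 bp (32.8%, 30.3 to 35.4) and 899 narrower than 200 bp (69.7%, 67.1 to 72.1). A gap of 1 bp occurred 17 times. Midpoint to midpoint, the neighbouring day 5 peaks were a median of 486 bp apart (475 to 499), with quartiles of 384 and 633 bp, and 61.5% of distances lay from 300 to 599 bp. The fragments of these libraries were about 170 to 500 bp long per the labels' protocols, and 835 of the 1290 gaps were shorter than 170 bp.

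**Figure D2:**
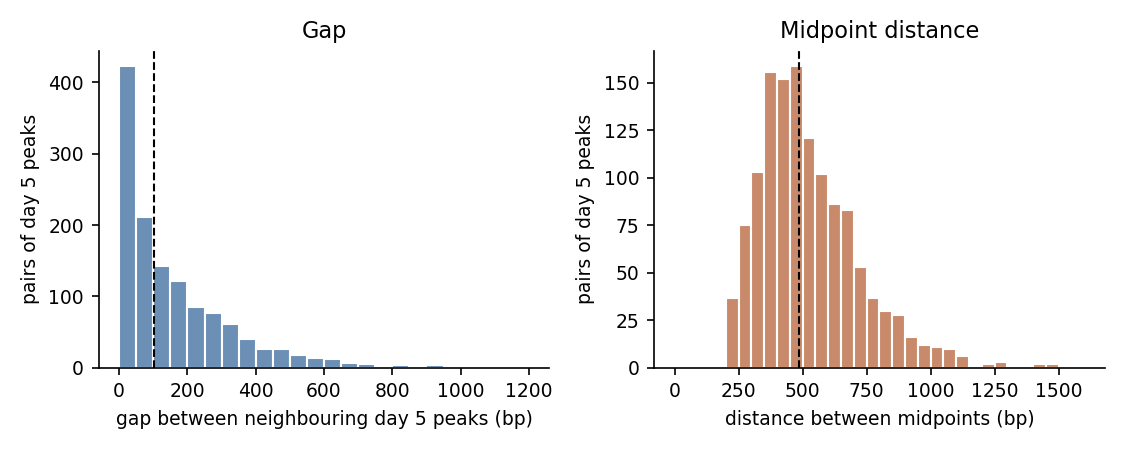
Gaps (left) and midpoint distances (right) of the 1290 pairs of neighbouring day 5 peaks inside split peaks, in 50 bp classes, with the number of pairs on the y axis and the median as a dashed line. Gaps are most frequent below 50 bp (423 pairs) and fall off from there, while midpoint distances have their median at 486 bp.

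Regions at the narrow end of this range were split by a single base pair. More regions than those named had this gap, and ties were taken in order of day 2 score. The first were the chromosome 5 region 106128491 to 106130108 (day 2 score 1282, day 5 scores 360 and 129), the chromosome 12 region 70993266 to 70995174 (827, with 57.55 and 403) and the chromosome 2 region 179838518 to 179839597 (639, with 69.91 and 253). The other 2 lay on chromosome 6 at 54515526 to 54516808 (636, with 50.69 and 77.52) and on chromosome 16 at 90220412 to 90221916 (507, with 179 and 53.49). In all 5 the gap was 1 bp, so that merging across that base would leave a single day 5 peak.

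At the wide end, the day 5 peaks lay at opposite edges of the day 2 peak. On chromosome 13 at 42146489 to 42148455 (day 2 score 596, place 1015), the day 5 peaks 42146594 to 42147024 (score 123) and 42148183 to 42148576 (71.51) were 1158 bp apart and covered 35.8% of the day 2 peak. On chromosome 14 at 47501409 to 47503317 (score 486) the gap was 1141 bp, between day 5 peaks of scores 61.34 and 90.70. On chromosome 16 at 24392674 to 24394457 (score 528) it was 1052 bp, and the day 5 scores were 53.86 and 314, the latter at place 242. The next widest gaps were 984 bp on chromosome 13 at 96220253 to 96221975 (58.39 and 120) and 942 bp on chromosome 5 at 150187737 to 150189707 (53.21 and 60.50). The day 2 midpoint lay in the gap in each of these 5 regions.

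Grouped by their widest gap, split peaks fell into 3 classes of similar size. The widest gap was under 50 bp in 378 split peaks (31.0%), from 50 to 199 bp in 455 (37.3%) and at least 200 bp in 388 (31.8%). These class limits were chosen after the gaps were seen. Median day 2 widths were 1204, 1305 and 1489 bp in this order, and the median covered share of the day 2 peak was 62.1%, 58.1% and 48.0%. Day 2 scores were close, with medians of 352, 366 and 369. The median score of the higher day 5 peak was 110, 99.7 and 93.5, and that of the lower one 61.5, 59.3 and 59.2. The midpoint of the day 2 peak lay in a gap in 4.50% (2.83 to 7.08), 23.1% (19.4 to 27.2) and 67.8% (63.0 to 72.2) of the classes. A wider gap is more likely to contain any given point, so this order follows in part from the classes themselves.

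The gap between paired day 5 peaks was often off the centre of the day 2 peak. Among split peaks with 2 day 5 peaks, the centre of the gap was a median of 123 bp from the day 2 midpoint (quartiles 59.5 and 215 bp). Its position along the day 2 peak, where 0 is the start and 1 the end, had quartiles of 0.40 and 0.59. Start and end follow the genome's orientation, so medians over regions do not show whether single regions are symmetric. An uneven example was the region on chromosome 13 at 75844387 to 75846235, which held 3 day 5 peaks. Its day 2 peak extended past the outermost day 5 peaks by 144 bp at the start and 665 bp at the end. The medians of these distances in all split peaks were 176 and 177 bp. Over all split peaks, the day 2 midpoint lay inside a day 5 peak in 788 (64.5%, 61.8 to 67.2), in a gap in 385 (31.5%, 29.0 to 34.2) and outside the outermost day 5 peaks in 48. In single-partner peaks the midpoint lay inside the day 5 peak in 73.6% (72.8 to 74.4). By the rule a split peak has a gap that can hold its midpoint, and single-partner peaks were narrower. The shares of these groups are thus not compared on equal terms.

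In about 3 of 4 split peaks every day 5 peak was contained in the day 2 peak. All day 5 peaks lay wholly inside the day 2 peak in 920 split peaks (75.3%, 72.9 to 77.7), against 88.0% (87.4 to 88.6) of single-partner peaks. A split peak has at least 2 day 5 peaks that could cross its ends, whereas a single-partner peak has 1. In 27 split peaks a day 5 peak also reached into another day 2 peak. The smallest overlaps that counted were 3 bp, as for the day 5 peak at 88684221 to 88684518 on chromosome 15.

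The day 5 peaks of a split peak differed in score to widely varying degrees. The higher day 5 peak of a split peak had a median score of 99.3 (97.4 to 103) and the lower a median of 59.7 (59.2 to 61.0), close to the lowest deposited score of 50. The median difference was 31.9 (29.1 to 35.2, quartiles 12.6 and 68.1). Sorting the peaks by score makes the first median the larger by construction, and unrelated pairs of day 5 peaks were not compared. In 308 split peaks (25.2%) all day 5 peaks reached the median score of the whole day 5 list, 72.2. In 657 (53.8%) some did, and in 256 (21.0%) none did. With the list limited to day 5 peaks at or above that median, 338 regions would remain split. In pairs, the peak of higher score was at least as wide as the other in 79.4% (77.0 to 81.7) of 1153. The peak of higher score lay nearer the day 2 midpoint in 61.0% (58.1 to 63.7). It was the one at the lower coordinate in 48.7% (45.9 to 51.6), with an interval that includes 50%.

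**Figure D3:**
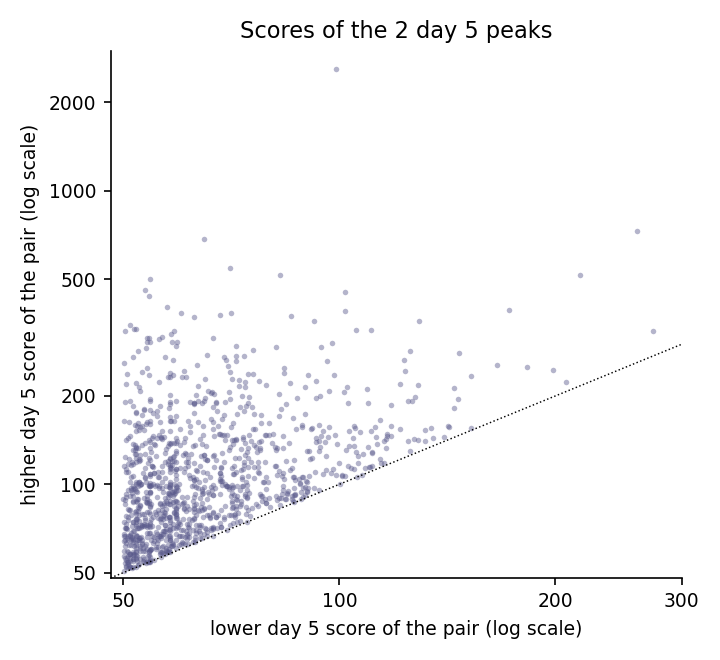
Score of the higher against the lower day 5 peak in the 1153 split peaks with exactly 2 day 5 peaks, both on log axes, with 1 point per split peak and the dotted line marking equal scores. Most lower scores lie near the lowest deposited value of 50, and the point far above the others is the chromosome 2 region with scores of 2608 and 98.87.

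The most unequal pairs and the highest summed scores were largely the same regions. After the chromosome 2 region, with a difference of 2509, came chromosome 19 at 55390210 to 55391519 (day 2 score 1132), whose day 5 peaks had scores of 64.66 and 685, the latter at place 11. On chromosome 11 at 115948087 to 115949385 (day 2 score 1058) the scores were 545 and 70.46 across a gap of 30 bp. The pair on chromosome 4 at 133129463 to 133130951 had scores of 54.51 and 499, although its day 2 peak was only at place 1251 (score 555). On chromosome 8 at 123059669 to 123061647 both day 5 peaks were high, with scores of 217 and 516, a gap of 9 bp and 93.5% of the day 2 peak covered. Of the 5 highest sums, 4 were also among the 5 largest differences, and the chromosome 8 region was the exception. Sum and difference rest on the same higher score, so this overlap follows in part from how they are formed.

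Split peaks with more than 2 day 5 peaks were wider and had higher day 2 scores. The 68 regions with 3 or 4 had a median width of 1558 bp and a median day 2 score of 509, against 1309 bp and 358 for the 1153 with 2. The median of the highest day 5 score was 104 against 99.2, and that of the lowest 55.8 against 60.4. The highest of more values tends to be higher and the lowest lower, so these are not like measures. More day 5 peaks also need more room, so the greater width follows in part from their number. The region with 4, on chromosome 14 at 57286479 to 57287744 (1266 bp, score 449, place 2226), was narrower than the median region with 3 or 4. Its day 5 peaks, of 274, 249, 208 and 230 bp, had scores of 59.22, 51.70, 66.53 and 62.29, and its gaps ran from 6 to 75 bp. Among regions with 3, chromosome 9 at 96918422 to 96919784 (score 1072) had its highest day 5 peak in the middle, with scores of 82.86, 200 and 62.85. So did chromosome 1 at 191550967 to 191552615 (score 875), with 51.75, 165 and 52.07. On chromosome 19 at 10175075 to 10176973 (score 878) the scores were 108, 67.55 and 78.19 and the gaps reached 473 bp. On chromosome 5 at 32437274 to 32439084 the day 5 scores were 87.69, 66.44 and 129. The region on chromosome 13 from 75844387 to 75846235 held scores of 86.46, 71.79 and 96.92. The last region named by the rule, on chromosome 1 from 33963686 to 33965599, held 59.22, 78.71 and 183.

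The share of split peaks was higher in wider classes of day 2 peaks. Split peaks had a median width of 1327 bp (1301 to 1354), single-partner peaks 858 bp (850 to 866) and day 2 peaks of the range without a day 5 peak 593 bp (590 to 597). Among day 2 peaks with a day 5 peak, none of 285 from 200 to 399 bp was split, which allows a share of up to 1.05% by a limit of 3 counts of 285 and up to 1.33% by the Wilson interval. The share was 2.45% (1.95 to 3.07) from 600 to 799 bp, 11.0% (9.68 to 12.5) from 1000 to 1199 bp, 25.1% (22.4 to 28.1) from 1400 to 1599 bp and 36.4% (31.4 to 41.7) from 1800 to 1999 bp. A gap of at least 200 bp was present in 25.0% of split peaks from 1000 to 1199 bp, in 50.8% of those from 1600 to 1799 bp and in 45.9% of those from 1800 to 1999 bp. The median of the widest gap was 94, 202 and 170 bp in these classes. A wider interval has more room for several day 5 peaks, so an increase with width follows in part from the rule.

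**Figure D4:**
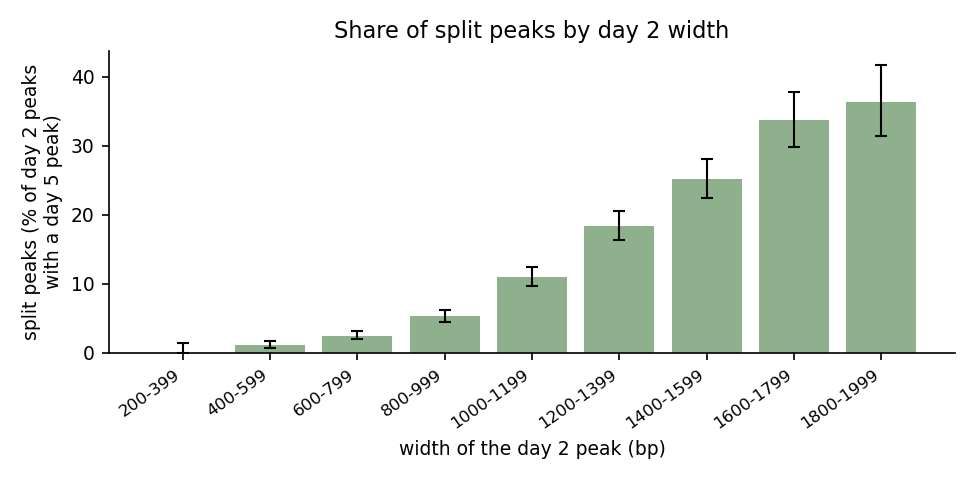
Share of split peaks among day 2 peaks with at least 1 day 5 peak (y axis, %), in 200 bp classes of day 2 width (x axis, bp), with Wilson 95% intervals as bars. The share goes from 0 of 285 in the narrowest class to 36.4% in the widest.

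Split peaks were also high in the day 2 list, and part of this went with their width. Their median day 2 score was 363 (347 to 379) against 194 (190 to 196) for single-partner peaks, and 679 of them (55.6%, 52.8 to 58.4) were in the top 10% of the list by score, against 22.3% (21.6 to 23.1). When single-partner peaks were weighted to the width distribution of split peaks in 100 bp classes, their median score was 313, which left a difference of 50.5 in place of 170. Within classes of width, peaks in the upper part by score (at or above the class median) were split in 22.6% (19.6 to 25.8) from 1200 to 1399 bp, against 14.1% (11.7 to 16.9) in the lower part. These intervals were apart, as they were from 1000 to 1199 bp (13.8% and 8.15%) and from 1400 to 1599 bp (30.4% and 19.9%). From 1800 to 1999 bp the shares were 43.5% (36.2 to 51.0) and 29.3% (23.0 to 36.6), with intervals that overlapped slightly. From 600 to 799 bp they were 2.85% and 2.04%, and from 800 to 999 bp 5.40% and 5.10%. From 1600 to 1799 bp they were 34.9% and 32.5%. The intervals overlapped in these classes too. Widths still varied within a class of 200 bp and were not compared between its upper and lower parts. These shares are therefore not at a fixed width. Only 41 split peaks had a score below the median of the day 2 list.

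Single day 5 peaks in split peaks were slightly narrower than those of single-partner peaks, but together they covered more of the region. They had a median width of 331 bp (324 to 337) and a median score of 73.8 (72.4 to 75.6), against 350 bp (347 to 353) and 76.7 (75.9 to 77.3) for the day 5 peaks of single-partner peaks. With single-partner peaks weighted to the same day 2 widths, the latter became 405 bp and 89.0. The higher day 5 peak of a split peak, with a median of 99.3, exceeded this value, as the higher of several values tends to do. Day 5 peaks together covered a median of 55.8% (54.4 to 57.0) of a split peak, against 43.1% (42.6 to 43.5) of a single-partner peak and 33.1% with weighting to the same widths. In bp, the overlap was a median of 693 in split peaks and 344 in single-partner peaks. By the rule, a split peak has more day 5 peaks to add up than a single-partner peak. The larger cover of split peaks, in % and in bp, therefore follows in part from the rule. Across the 1221 split peaks, Spearman's rho of the day 2 score and the highest day 5 score was 0.48. The 2 values come from the same places in 2 libraries, and this rho is given as a description.

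Most close day 5 neighbours on the autosomes lay in a single day 2 peak. On chromosomes 1 to 19, 512 pairs of neighbouring day 5 peaks were less than 50 bp apart, and both members of 497 of them (97.1%, 95.2 to 98.2) overlapped the same day 2 peak, which was a split peak for 423 and a peak of at least 2000 bp for the other 74. At gaps of 200 to 299 bp the share was 79.4% (74.0 to 83.9), at 500 to 999 bp 32.8% (28.7 to 37.1), and at 1000 to 1999 bp 5.57% (3.95 to 7.79). In the last class 413 of 557 pairs (74.1%) had a separate day 2 peak under each day 5 peak. The 423 pairs in split peaks are gaps that the rule itself selected. A wider gap also fits into fewer day 2 peaks, so the fall with the gap follows in part from peak widths.

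**Figure D5:**
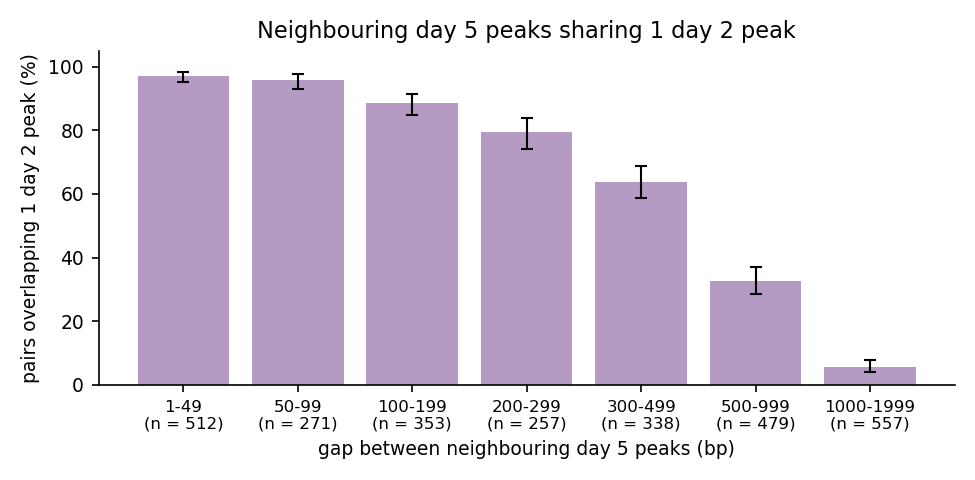
Share of neighbouring day 5 peaks on chromosomes 1 to 19 that overlap the same day 2 peak (y axis, %), of any width, by the gap between them (x axis, bp), with the number of pairs under each class and Wilson 95% intervals as bars. The share goes from 97.1% below 50 bp to 5.57% at 1000 to 1999 bp.

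Split peaks were spread over all 19 autosomes. Their share of partnered day 2 peaks ran from 6.73% on chromosome 7 (5.02 to 8.97, 42 of 624) and 6.83% on chromosome 12 (4.97 to 9.31, 36 of 527) to 11.5% on chromosome 8 (9.31 to 14.0, 80 of 698) and 11.7% on chromosome 5 (9.69 to 14.1, 97 of 829). The intervals of chromosomes 7 and 5 were apart, but these are the extremes of 19 and the intervals do not allow for that choice. Chromosome 15 held 6.47% of split peaks (5.22 to 7.99) and 6.88% of partnered day 2 peaks. The largest number, 111, was on chromosome 11.

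Most split peaks lay more than 10 kb from the nearest other. The median distance from a split peak to the nearest other was 350 kb, and 60 (4.91%) lay within 10 kb of another. These distances were not compared with those of single-partner peaks or of evenly placed regions. They do not show whether split peaks were closer together or further apart than such regions. Of the 770 windows of 1 Mb that held a split peak, 488 held 1 and 104 held at least 3. The fullest was chromosome 8 from 86 to 87 Mb, with 8 split peaks among 36 partnered day 2 peaks (22.2%, 11.7 to 38.1), and only 1 of the 8 had a gap of at least 200 bp. Windows on chromosome 19 from 47 to 48 Mb (7 of 24) and chromosome 13 from 23 to 24 Mb (7 of 26) followed, then chromosome 10 from 110 to 111 Mb (6 of 12) and chromosome 8 from 123 to 124 Mb (6 of 16). These windows were picked as extremes, and their shares rest on few peaks. In longer stretches the shares were near the 9.59% of the whole range, with 10.8% (7.30 to 15.7) on chromosome 8 from 79 to 99 Mb and 7.21% (4.89 to 10.5) on chromosome 15 from 71 to 91 Mb. A day 2 neighbour less than 1 kb away was present for 26.3% (23.9 to 28.8) of split peaks and 25.0% (24.2 to 25.7) of single-partner peaks.

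The widest split peaks were 1998 bp (chromosome 14 at 76228642 to 76230639, gap 2 bp, day 5 scores 147 and 281), 1997 bp (chromosome 8 at 87322724 to 87324720, gap 866 bp, 140 and 77.72) and 1996 bp (chromosome 5 at 24413620 to 24415615, gap 37 bp, 129 and 106). The narrowest day 2 peaks left out by the limit that also held 2 day 5 peaks were 2000 bp (chromosome 14 at 87815556 to 87817555, gap 133 bp, 54.17 and 87.71), 2001 bp (chromosome 5 at 28363392 to 28365392, gap 325 bp, 121 and 116) and 2002 bp (chromosome 2 at 131004389 to 131006390, gap 209 bp, 73.65 and 77.14).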

How the data were processed

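Regions and gap classes were chosen with earlier results of these data known. Groups were taken from the sample titles. The authors deposited 1 list of peaks per LSD1 library, called with MACS in Galaxy, per the file headers. The sources used here do not give the MACS version, its cutoff or its use of the input. Bowtie2, deepTools and mm9 are named in the submitters' processing notes, without roles. Each line gives a position in bp and the score that the authors deposited. Starts, counted from 0 in the lists, are printed counted from 1, and a gap is the number of bases between neighbouring day 5 peaks. No peaks of 1 list overlapped. Closely spaced calls depend on depth, fragment length and the caller's merging, which were not analysed here.

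Overlaps were computed in Python 3.11.15 with NumPy 2.4.6, pandas 2.3.3 and SciPy 1.17.1, and figures with Matplotlib 3.10.9. Counts by bedtools 2.31.1 gave the same number, 1221. A check placed simulated day 5 peaks in a small random part of a pool of 19217 day 2 positions. All 300 planted splits were found with 0 others, and 299 gaps were exact. Named regions were the 10 of highest day 2 score, the 10 with most day 5 peaks, the 5 widest and 5 narrowest gaps in pairs, the 5 highest summed scores, the 5 largest score differences, 5 windows of 1 Mb and 3 regions on each side of the width limit. Ties among the narrowest gaps were taken by day 2 score. Alternatives changed the overlap, score, width, chromosome and merging rules. The gene table at hand is of GRCm38.p6, so gene lists and sequences were not used.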

Additional observations from a re-analysis of the deposited data

How the results depend on the processing

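Of 123 alternatives for 12 values, 69 stayed within the interval of the main value (counts within 1.5 times), 54 moved and none reversed. The number of split peaks moved by over 1.5 times under a day 5 score limit, under merging of day 5 peaks within 200 bp and under a narrower width limit. With day 5 peaks under 200 bp apart merged, 388 of the 1221 regions remained split (3.05% of partnered peaks), with a median gap of 326 bp, a midpoint distance of 704.5 bp, 48.1% of the day 2 width covered, the day 2 midpoint in a gap in 67.8%, a width difference to single-partner peaks of 605.5 bp, a difference in day 5 scores of -5.23 and a difference within pairs of 27.5. Merging under 50 bp, chosen after seeing the data, left 843 (6.62%), with a gap of 180 bp, a distance of 573.5 bp, 52.4% covered, the midpoint in a gap in 43.7% and a width difference of 513 bp. Day 5 scores at or above their median left 338 (4.62%), with a distance of 560.0 bp, 59.4% covered, 82.5% wholly inside and differences of 505 bp in width and 224 in day 2 score. Day 2 scores at or above their median gave a share of 11.5% and differences of 389.5 bp, 138 in day 2 score and -8.37 in day 5 score. A width below 1500 bp left 812 (7.09%), with a gap of 80.5 bp, a distance of 452.5 bp, 59.3% covered, 69.6% inside, 4.56% on chromosome 15, a difference within pairs of 28.9 and differences of 347 bp and 131 in day 2 score. No width limit gave a share of 11.4%, a gap of 122 bp, a distance of 525 bp, 53.2% covered, 78.4% inside, a difference within pairs of 36.1 and differences of 582.5 bp, 215 in day 2 score and -0.065 in day 5 score. Day 5 peaks wholly inside gave 8.29%, 53.8% covered, 100% inside by construction and differences of 510.0 bp and 189. An overlap of at least 50% of the day 5 peak gave 80.7% inside. Weighting to the same widths gave differences of 2 bp, 50.5 in day 2 score and -15.3 in day 5 score. The regions left by merging under 200 bp are those whose widest gap was at least 200 bp. Those left by merging under 50 bp had a widest gap of at least 50 bp. Their counts and midpoint shares thus restate the gap classes and are not separate results. Merging and limits leave fewer peaks by construction, while for the remaining moves the cause was not tested. No paired analysis was possible because each group has 1 library, and for the same reason no replicate could be left out. Depth was not analysed here, so the depth at which a shallow gap between day 5 peaks would be called is unknown.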

Other observations

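Day 2 peaks outside the width and chromosome limits also held several day 5 peaks. Of the 663 autosomal day 2 peaks of at least 2000 bp, 578 had a day 5 peak and 295 of these (51.0%, 47.0 to 55.1) held at least 2. On chromosome X, 81 day 2 peaks had a day 5 peak and 1 held several (1.23%, 0.218 to 6.67).

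The reverse layout, a day 5 peak over several day 2 peaks, was rarer. On chromosomes 1 to 19 it occurred for 60 of 14925 partnered day 5 peaks (0.402%), with 2 day 2 peaks in each. The median gap between those day 2 peaks was 30.5 bp, and 38 of the 60 gaps were narrower than 50 bp. Single-partner peaks had a median width of 858 bp and their day 5 peaks one of 350 bp. A narrower interval has less room for several peaks of the other list, so the 2 layouts are not compared on equal terms. The highest-scoring cases of the reverse layout were chosen after their values were seen. They lay on chromosome 19 at 44482119 to 44482712 (day 5 score 306, day 2 gap 52 bp), chromosome 14 at 51818649 to 51819962 (273, gap 29 bp) and chromosome 6 at 91593126 to 91594260 (271, gap 1 bp). Each of these 3 day 5 peaks also reached into a split peak, which was so for 24 of the 60.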
